A study of Mus musculus with 10 samples.

Results

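The genes described here mark and maintain the pluripotent state of mouse embryonic stem cells: Pou5f1, Nanog, Sall4, Lin28a, Utf1 and Dppa4. They were taken by name, as 6 of the 24520 genes of the deposited table, and each gene was read from its transcript row with the highest mean over the 10 libraries. All 6 were among the 11956 genes that passed a filter of at least 1 RPKM (reads per kilobase of transcript per M, or mega, of mapped reads) in at least 2 libraries. None of them came near that limit, since the lowest value of any of the 6 in any library was 18.0 RPKM.

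The study asked, per its title, how Cbx3 bears on lineage choice during neural differentiation. Cbx3 encodes HP1 gamma, a chromodomain protein that binds methylated histone H3, and the product of Med26 belongs to Mediator, which connects transcription factors with RNA polymerase II. Total RNA was sequenced from V6.5 cells, a mouse embryonic stem cell line, in 5 groups of 2 libraries. Undifferentiated cells (ESCs) received control siRNA, directed at luciferase, or siRNA against Cbx3. Cells differentiated from the same line, which the labels call neural progenitor cells (NPCs), received control siRNA, siRNA against Cbx3 or siRNA against Med26. The NPCs came from 4 days of embryoid body culture followed by dissociation and plating in ITSF medium, with transfection on day 5 and harvest on day 8. The ESCs grew on irradiated mouse fibroblasts with LIF, and the labels give no separate transfection schedule for them. All groups derive from the same cell line and none carries a genetic deletion. The labels call the replicates biological without saying what separates them, so each p-value reflects only how far these libraries spread, which may be technical.

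Pou5f1 encodes Oct4, the POU-domain factor that pairs with Sox2 on DNA, and Nanog is the homeodomain factor that stabilises self-renewal in ESCs. Sall4 is a zinc finger factor that acts upstream of Pou5f1 and recruits the NuRD deacetylase complex. Lin28a is an RNA-binding protein that blocks maturation of let-7 microRNAs, Utf1 is a chromatin-associated protein of undifferentiated cells, and Dppa4 is a DNA-binding protein that works together with Dppa2. Oct4 and Nanog are carried from the naive state of ESCs into the primed state of the epiblast, whereas factors such as Esrrb and Klf4 belong to the naive state, and the network is shut off when cells become neural progenitors.

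The promoter windows of Pou5f1 and Nanog are shown because these were the members that passed the test after Cbx3 siRNA in NPCs. Each window runs from 250 bases before to 50 bases after an annotated start, taken from RefSeq on GRCm38.p6. In the Pou5f1 window, chr17:35505782-35506081 on the plus strand, the capitals mark a GC box (GGGCGG) and a nuclear receptor half-site (AGGTCA).
Pou5f1: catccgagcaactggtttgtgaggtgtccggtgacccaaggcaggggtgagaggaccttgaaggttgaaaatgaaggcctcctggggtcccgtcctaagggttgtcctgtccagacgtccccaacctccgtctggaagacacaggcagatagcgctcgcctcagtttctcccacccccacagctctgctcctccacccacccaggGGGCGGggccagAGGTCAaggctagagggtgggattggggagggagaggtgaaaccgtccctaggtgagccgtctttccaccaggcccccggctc
In the Nanog window, chr6:122707315-122707614 on the plus strand, the capitals mark an octamer core (TTTGCAT), 1 further base and a Sox motif (ACAAT), an arrangement known as an Oct-Sox pair.
Nanog: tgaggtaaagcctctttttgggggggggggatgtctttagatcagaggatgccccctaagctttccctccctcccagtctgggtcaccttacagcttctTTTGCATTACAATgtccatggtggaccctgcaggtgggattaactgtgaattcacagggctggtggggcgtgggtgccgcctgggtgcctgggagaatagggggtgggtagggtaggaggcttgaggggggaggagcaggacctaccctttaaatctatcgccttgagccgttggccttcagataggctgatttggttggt

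Motifs were searched on both strands in all 32851 promoter windows of this length. With positions counted from the annotated start as 0, the GC box of Pou5f1 lay at -45 to -40 and its half-site at -33 to -28, and the Oct-Sox pair of Nanog lay at -151 to -139. The Oct-Sox pair was found in 8 windows (0.0244%), among them both windows of Nanog, which overlap. The octamer core alone, which is contained in the pair, occurred in 4.63% of windows, the GC box in 35.7% and the half-site in 16.3%. Windows were available for 4 of the 6 members, namely Pou5f1, Nanog, Lin28a and Utf1. The Utf1 window held 4 GC boxes and the Lin28a window 1, and neither held the octamer core. A match describes letters in a window and is not evidence of binding.

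All 6 genes were expressed in every ESC and NPC library. Expressed per length, Pou5f1 was the highest of the 6 throughout, between 252 and 536 RPKM, which placed it at rank 33 to 182 among all genes. Lin28a came next, followed by Utf1, in each of the 10 libraries. In 8 libraries the order went on with Sall4, Dppa4 and Nanog, while in ESC control replicate 1 Nanog stood above Dppa4 and in ESC Cbx3 siRNA replicate 1 Nanog stood above Sall4.

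Over all 10 libraries Utf1 and Sall4 varied least, with a highest library at 1.49 and 1.69 times the lowest. Over the 6 NPC libraries the same 2 genes varied most, by the same ratios, beside 1.16 to 1.35 times for the other 4. Their gaps between the NPC control replicates exceeded those of 98.1% and 96.4% of tested genes. Over all libraries Dppa4 spanned 1.82 times, Pou5f1 2.13 times and Lin28a 2.36 times. Nanog varied most, by 3.79 times over all 10 libraries, but by only 1.35 times over the 6 NPC libraries. Much of the range of Pou5f1, Nanog and Lin28a was thus found among the 4 ESC libraries, where the ratios were 2.13, 3.79 and 1.92.

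**Figure D1:**
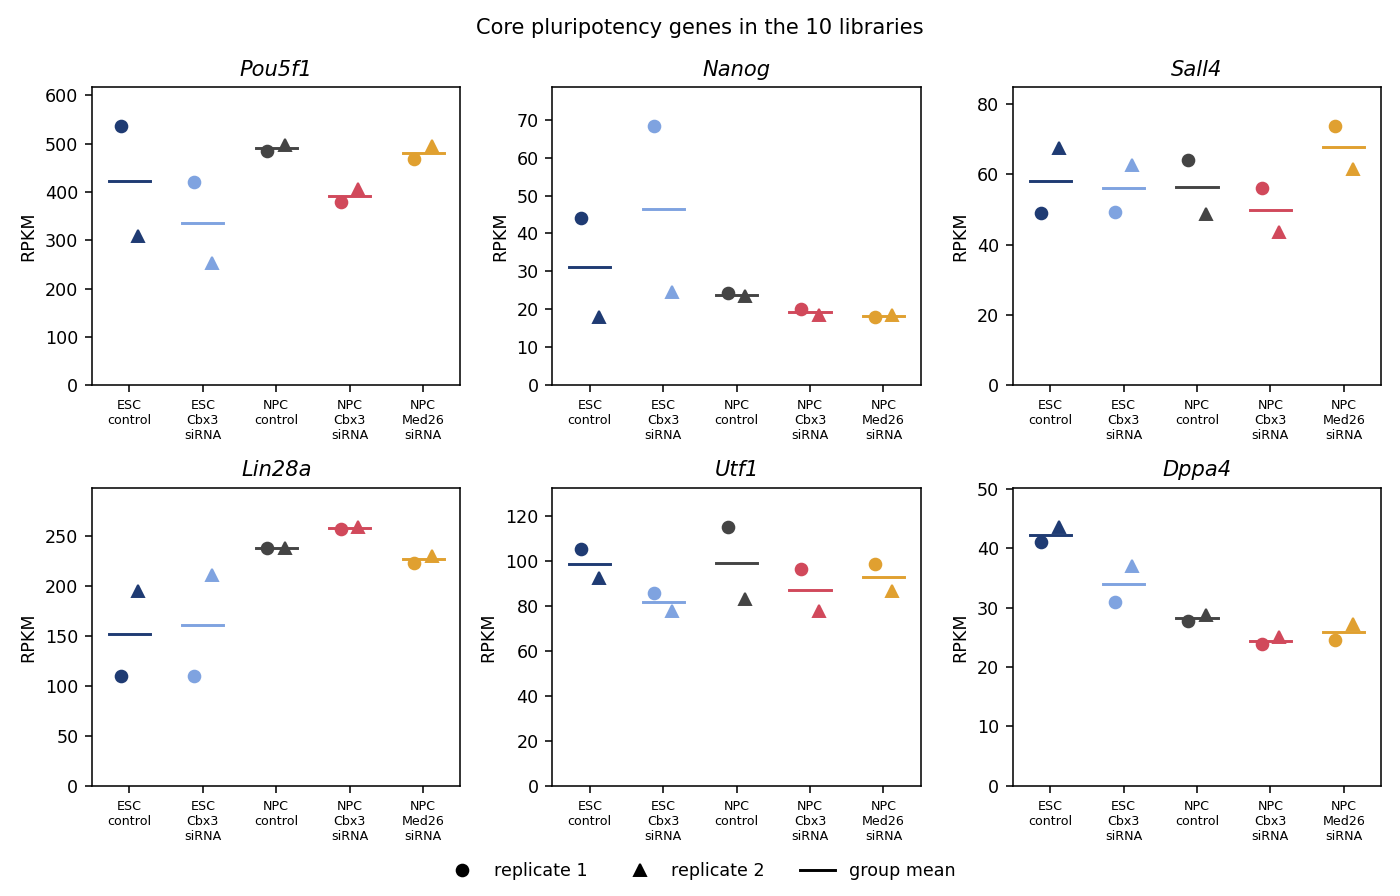
Level of each core pluripotency gene in RPKM (vertical axes, each from 0) in the 5 groups; circles are replicate 1, triangles are replicate 2 and bars are group means. Pou5f1, Nanog and Lin28a lie far apart between the ESC replicates and close together between the NPC replicates, and Dppa4 is lower in all 6 NPC libraries (23.9 to 28.7 RPKM) than in all 4 ESC libraries (30.9 to 43.6 RPKM).

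The ESC replicates stood apart from each other. Over the tested genes, the correlation between replicates was 0.949 for each ESC group and 0.995 to 0.996 for the NPC groups, and the steps of low values correspond to 23.3 M to 63.8 M reads per library, with both ESC replicates 2 the shallowest. The same members differed between replicates 1 and 2 in the control and in the Cbx3 siRNA group of ESCs. Nanog was higher in replicate 1 by 1.25 in control and 1.44 after Cbx3 siRNA on the log2(RPKM + 1) scale, gaps larger than those of 96.2% and 97.0% of tested genes. Pou5f1 was also higher in replicate 1, by 0.80 and 0.74, and Lin28a was lower there, by 0.82 and 0.93 in size. The summed level of 12 naive pluripotency factors was higher in replicates 1, as for Nanog and Pou5f1 and unlike Lin28a. It was at 259 and 292 RPKM in replicates 1 and at 105 and 123 RPKM in replicates 2. The summed level of 11 primed epiblast genes was lower in replicates 1, at 216 and 156 RPKM against 318 and 251 RPKM in replicates 2. Most of that sum was Dnmt3b, while Nodal in both groups and Dnmt3a in control were higher in replicate 1. The summed level of 8 trophoblast markers was 24.0 and 35.1 RPKM in replicates 1 and 103 and 233 RPKM in replicates 2. Most of the latter was Krt8 (40.7 and 95.7 RPKM) and Krt18 (54.3 and 128 RPKM), keratins of simple epithelia in general. Tfap2c and Eomes were lower in replicates 2, and Cdx2, Elf5 and Hand1 were near 0 in all 4 libraries. Their part in the members' spread was not tested.

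The siRNAs lowered their targets in NPCs. Cbx3 was at 9.37 and 9.65 RPKM in NPC control and at 0.425 and 0.248 RPKM after Cbx3 siRNA (log2 change -2.98, SE 0.09, adjusted p = 1.72e-04). Med26 was at 7.56 and 6.78 RPKM in NPC control and at 3.04 and 3.07 RPKM after Med26 siRNA (log2 change -1.01, SE 0.10, adjusted p = 0.00398). In ESCs, Cbx3 was at 14.0 and 56.4 RPKM in control and at 1.01 and 1.96 RPKM after Cbx3 siRNA, without overlap, but the difference did not pass over all genes (log2 change -3.59, SE 0.70, adjusted p = 1).

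The label of the NPCs was checked against 12 neural progenitor markers, of which 8 were tested. In NPC control against ESC control 3 rose and 1 fell, beside 10.1% and 5.94% of all tested genes. The marker that fell was Sox2 (-1.68, limma, adjusted p = 0.014). The summed level of the 12 was lower in NPC control, at 95.7 and 90.6 RPKM against 155 and 105 RPKM in ESC control, where most of it was Sox2. Nes, an intermediate filament of neural progenitors, was at 34.9 and 33.4 RPKM in NPC control and at 6.35 and 15.4 RPKM in ESC control, and Sox1 was at 9.22 and 8.29 RPKM against 5.52 and 5.50 RPKM. Sox3 was also among the 3 that rose (1.40, limma, adjusted p = 0.00226). Pax6 was low, at 3.39 and 3.42 RPKM in NPC control against 0.704 and 2.07 RPKM in ESC control, and did not pass (0.95, adjusted p = 0.0534). The proneural factor Neurog2 was at or near 0, at most 0.0658 RPKM in any NPC library. The cells labelled NPCs carried Pou5f1 within the range of the ESC libraries beside Nes and Sox1. Sox2 was lower in NPC control than in ESC control, and Neurog2, Fabp7 and Hes5 were below 1 RPKM in every library, ESC or NPC.

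Between ESCs and NPCs under control siRNA, Dppa4 was the member that changed. It was at 41.0 and 43.6 RPKM in ESC control and at 27.7 and 28.7 RPKM in NPC control. The groups did not overlap, and the means were 42.3 ± 1.86 and 28.2 ± 0.70 RPKM (SD, n = 2 each). On the log2(RPKM + 1) scale Dppa4 fell by 0.57 (limma, SE 0.11, 95% interval -0.83 to -0.31, adjusted p = 0.0164). Thus 1 of the 6 members was called, beside 16.0% of all tested genes (1208 higher and 710 lower as deposited, 944 and 906 after rescaling by median ratios), a share near the background. The Dppa4 call was lost without NPC control replicate 1 (adjusted p = 0.116), without NPC control replicate 2 (0.0901) and when the 4 control libraries alone were fitted (0.101).

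Pou5f1 was at 536 and 308 RPKM in ESC control and at 484 and 497 RPKM in NPC control. Both NPC values lay inside the range of the ESC pair, and the log2 change of 0.27 did not pass (SE 0.30, 95% interval -0.43 to 0.97, adjusted p = 0.553). Oct4 RNA in these NPCs can therefore not be told from that in ESCs within an interval of this width. Its direction hung on the ESC library used as reference: alternatives added after the data were seen gave 0.67 without both ESC replicates 1 and -0.13 without both ESC replicates 2.

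Nanog was at 44.2 and 18.0 RPKM in ESC control and at 24.3 and 23.5 RPKM in NPC control. The NPC values again lay between the ESC values, with a log2 change of -0.24 (SE 0.50, 95% interval -1.40 to 0.93, adjusted p = 0.77). The value was 0.39 without both ESC replicates 1 and -0.86 without both ESC replicates 2, so that its sign too depended on the ESC replicate.

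Lin28a was at 109.6 and 195 RPKM in ESC control and at 238 RPKM in both NPC control libraries. The groups did not overlap, yet the log2 change of 0.70 did not pass (SE 0.33, 95% interval -0.07 to 1.48, adjusted p = 0.185). It passed after quantile normalization (0.83, adjusted p = 0.0471), and it was 0.29 without both ESC replicates 1 and 1.11 without both ESC replicates 2, past the threshold each time.

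Sall4 and Utf1 were the members with the smallest differences. Sall4 was at 48.9 and 67.4 RPKM in ESC control and at 64.2 and 48.8 RPKM in NPC control, and Utf1 was at 105 and 92.4 RPKM against 115 and 83.1 RPKM. The groups overlapped for both genes. The log2 changes were -0.04 for Sall4 (SE 0.22, adjusted p = 0.927) and -0.01 for Utf1 (SE 0.18, adjusted p = 0.985), and the latter was 0.05 after quantile normalization.

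The wider pluripotency network was read beside the 6 members. Of 12 naive factors, 8 fell and 0 rose in NPC control against ESC control, beside 5.94% and 10.1% of all tested genes. Their median log2 change was -2.23. Nr0b1, an orphan nuclear receptor that interacts with Oct4, was at 20.0 RPKM or more in both ESC control libraries and at 1.29 and 1.60 RPKM in NPC control (-3.75, adjusted p = 0.00329). Esrrb, the nuclear receptor that sustains self-renewal, fell by 3.79 (adjusted p = 0.0121). Klf4 fell by 3.18 (adjusted p = 0.0131) and Socs3, a feedback inhibitor of LIF signalling, fell by 2.99 (0.00563). Klf4 and Nr5a2, both among the 8, were below 1 RPKM in every NPC library. They passed the filter only through the ESC libraries, where they were high. The same held for Tbx3, Prdm14 and Tcl1, which were not called.

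Among 25 partners of the core genes, 11 fell and 1 rose, beside 5.94% and 10.1% of all tested genes. Their median was -0.42, against -0.02 for the 6 members and 0.03 for all tested genes. Sox2, the partner of Oct4 on DNA, was at 131 and 72.1 RPKM in ESC control and at 29.6 and 29.9 RPKM in NPC control. It fell by 1.68 (adjusted p = 0.014) while Pou5f1 did not pass. Zfp42 (Rex1), a classical marker of ESCs, fell by 2.10 (adjusted p = 0.00124), the DNA demethylase Tet1 by 1.95 (0.00557) and Dppa5a by 1.67 (0.00116), whereas Gdf3, a TGF-beta family ligand, rose by 0.59 (0.0414).

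Of 11 genes of the primed epiblast, 2 rose in NPC control and 0 fell, a share near the 16.0% of all tested genes, and the other 9 did not pass. Their median was 0.91, with Dnmt3a at -0.13. Fgf5, a ligand that marks the epiblast, went from 0.156 and 0.797 RPKM to 5.12 and 4.62 RPKM (2.02, adjusted p = 0.00219), and Sox3, a SoxB1 factor, rose by 1.40 (0.00226). Fgf5 was below 1 RPKM in every ESC library, so it passed the filter only through the NPC libraries where it was high. Among 13 NuRD subunits, the complex that Sall4 binds, Chd3 rose by 0.80 (adjusted p = 0.00444), none fell and the median was 0.06. Among 16 genes around Lin28 and let-7, the RNA-binding protein gene Igf2bp3 rose by 0.62 (adjusted p = 0.021), none fell and the median was 0.00.

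**Figure D2:**
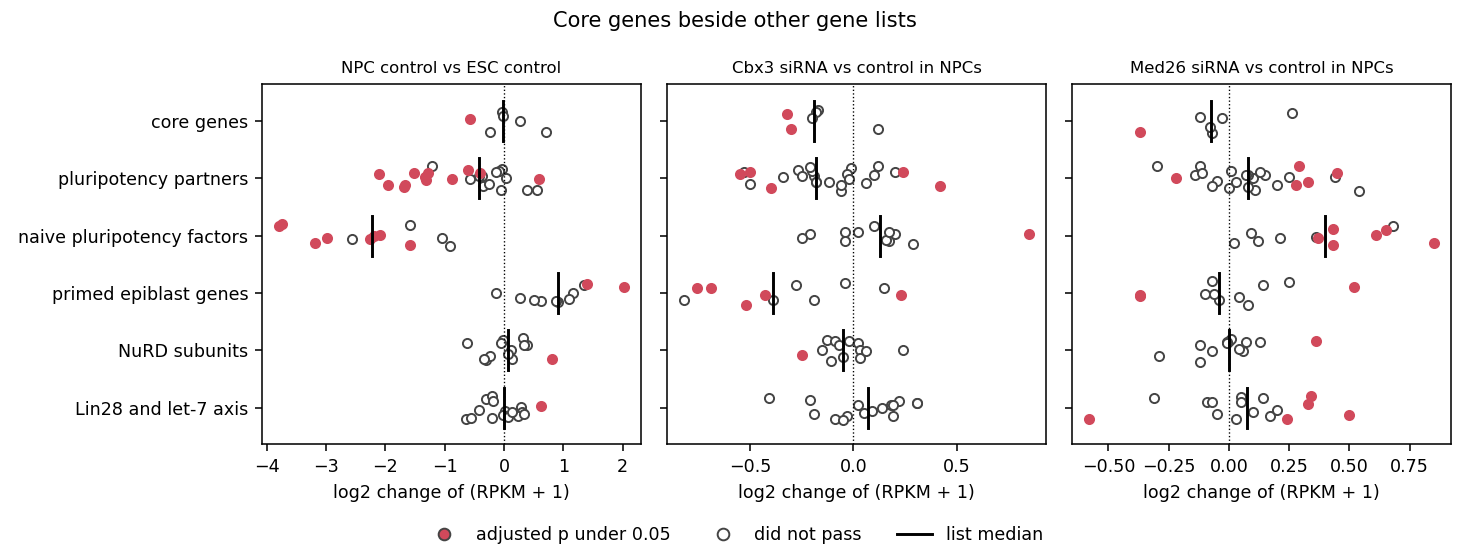
Log2 change of (RPKM + 1) for each gene (horizontal axes, a different range in each panel) of the core genes and 5 other lists in 3 comparisons; filled points passed at an adjusted p under 0.05, open points did not, and bars are list medians. In NPC control against ESC control the naive factors lie to the left (median -2.23) and the core genes around 0 (median -0.02), while after Med26 siRNA 6 of 12 naive factors are filled on the right. Of these 6, Klf4 and Nr5a2 were below 1 RPKM in every NPC library.

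Markers of feeder fibroblasts were read beside these changes. The summed level of 18 fibroblast markers was 68.2 to 106 RPKM in the ESC libraries and 25.1 to 36.5 RPKM in the NPC libraries. Of the 13 tested markers 5 fell in NPC control and 0 rose, beside 5.94% and 10.1% of all tested genes. S100a4, at 27.2 and 34.3 RPKM in ESC control, and Col1a2, at 14.0 and 21.8 RPKM, made up most of the sum in both ESC control libraries. Col5a1 (0.39), Fbn1 (0.50), Twist1 (0.20) and Col6a2 (0.08) were not lower in NPC control, and none of them passed. Fap was at 0 in every library and Lum in every ESC library. In bulk RNA, fewer cells that express a gene and less of its RNA per cell cannot be told apart. Mesoderm and primitive streak markers summed to 2.27 to 3.40 RPKM in ESCs and to more in every NPC library, up to 19.9 RPKM. All 4 tested streak markers rose in NPC control, beside 10.1% of all tested genes: Fgf8 (2.30), Wnt3 (1.83), T (1.44) and Eomes (0.47). T and Fgf8 were below 1 RPKM in every ESC library and passed the filter only through the NPC libraries. Trophoblast markers summed to 24.0 to 233 RPKM in ESCs and to 196 to 515 RPKM in NPCs. Neuron markers summed to 73.5 to 117 and 82.7 to 94.4 RPKM, and endoderm markers to at most 5.11 RPKM. Most of the trophoblast sum in NPCs was Krt8 and Krt18. Elf5, a trophoblast transcription factor, was at 0 in ESC control replicate 1 and both NPC control libraries, and Afp in most libraries. The part of these cells in the members' values was not tested.

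The same step was read in cells with Cbx3 siRNA, whose libraries are not those of the controls. It is not an independent repeat. Both comparisons took their error from the same fit of all 10 libraries, and same-numbered ESC libraries deviated together (r = 0.89 between the ESC groups). Dppa4 was again the member that passed, at 30.9 and 37.0 RPKM in ESCs and at 23.9 and 25.0 RPKM in NPCs, without overlap (log2 change -0.45, SE 0.11, adjusted p = 0.0293). That is 1 of 6 members beside 20.6% of all tested genes (1741 higher and 719 lower, or 1195 and 1041 after rescaling by median ratios). The Dppa4 call was narrow. It was lost when any 1 of the 6 NPC libraries was left out (adjusted p 0.0532 to 0.156), without ESC Cbx3 siRNA replicate 2 (-0.32, 0.0848) and when the 4 Cbx3 siRNA libraries alone were fitted (0.133).

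Nanog was at 68.3 and 24.5 RPKM in ESCs with Cbx3 siRNA and at 20.2 and 18.4 RPKM in NPCs with it. The groups did not overlap, and the change of -1.05 did not pass (SE 0.50, 95% interval -2.21 to 0.11, adjusted p = 0.171). It passed without ESC Cbx3 siRNA replicate 2 (-1.77, adjusted p = 0.0273), and over the fits that left out 1 library the change ran from -1.77 to -0.33.

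Lin28a was at 109.9 and 211 RPKM in these ESCs and at 257 and 259 RPKM in the NPCs, again without overlap (0.76, SE 0.33, adjusted p = 0.143). It passed without ESC Cbx3 siRNA replicate 2 (1.22, adjusted p = 0.0268) and after quantile normalization (0.88, 0.0358). Pou5f1 differed by 0.27 (adjusted p = 0.548), Sall4 by -0.17 (0.624) and Utf1 by 0.08 (0.767), and for each of these 3 genes the ESC and NPC ranges overlapped. In the same comparison 11 of 12 naive factors fell and 0 rose, and 14 of 25 partners fell and 1 rose. Of all tested genes 6.01% fell and 14.6% rose. Klf4, Nr5a2, Tbx3, Prdm14 and Tcl1, all among the 11, were below 1 RPKM in every NPC library. They passed the filter only through the ESC libraries, where they were high. Of the primed genes 3 of 11 rose and 0 fell. With 1 of 13 NuRD subunits and 2 of 16 genes around Lin28 and let-7 that rose, these lists were not above the share of all tested genes.

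**Figure D3:**
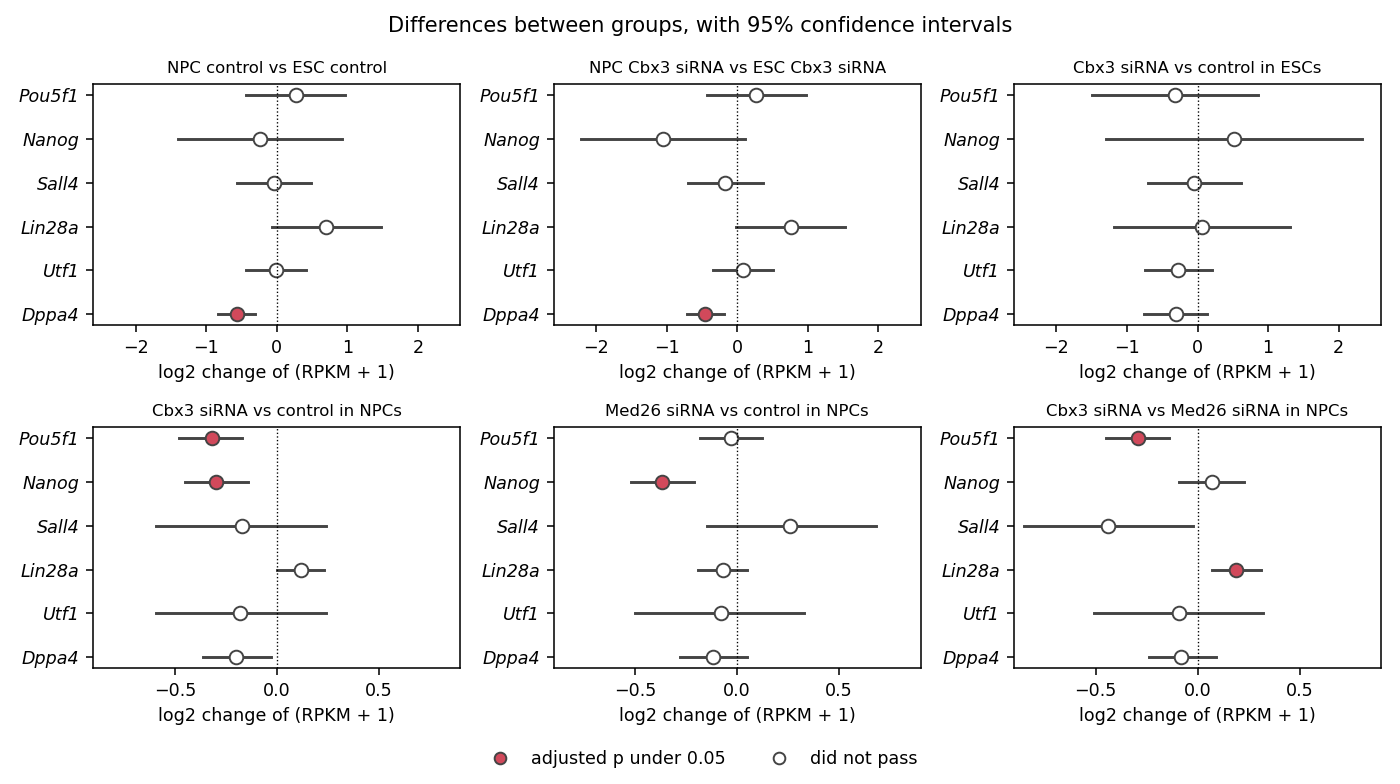
Log2 change of (RPKM + 1) of the 6 core genes (points) with 95% confidence intervals (lines) in 6 comparisons, named above the panels; filled points passed at an adjusted p under 0.05. The axes of the upper row reach further than those of the lower row, and Nanog has the widest interval in each upper panel (-2.21 to 0.11 in NPCs against ESCs with Cbx3 siRNA).

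Cbx3 siRNA lowered Pou5f1 and Nanog in NPCs. Pou5f1 was at 484 and 497 RPKM in NPC control and at 379.5 and 405 RPKM after Cbx3 siRNA, without overlap (means 491 ± 9.34 and 392 ± 18.2 RPKM, SD, n = 2 each). It fell by 0.32 on the log2 scale (SE 0.06, 95% interval -0.48 to -0.17, adjusted p = 0.0247). Nanog was at 24.3 and 23.5 RPKM in control and at 20.2 and 18.4 RPKM after Cbx3 siRNA, also without overlap (23.9 ± 0.565 and 19.3 ± 1.25 RPKM, SD, n = 2 each), and fell by 0.30 (SE 0.06, 95% interval -0.45 to -0.14, adjusted p = 0.0326).

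With these, 2 of 6 members were called, beside 13.1% of all tested genes. The median over the members was -0.19, against 0.01 over all tested genes. Neither call survived a fit of the 10 libraries together (adjusted p = 0.816 for Pou5f1 and 0.954 for Nanog) or the removal of the filter on low values (0.114 and 0.10). The Pou5f1 call was lost on leaving out any 1 of the 4 control and Cbx3 siRNA libraries (adjusted p 0.0634 to 0.123), and the Nanog call on leaving out any 1 of the 6 NPC libraries (0.0638 to 0.15).

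The other 4 members did not pass in this fit. Dppa4 was at 27.7 and 28.7 RPKM in control and at 23.9 and 25.0 RPKM after Cbx3 siRNA, without overlap (-0.20, SE 0.07, adjusted p = 0.112). Lin28a was at 238 RPKM in both control libraries and at 257 and 259 RPKM after Cbx3 siRNA, higher in both (0.12, adjusted p = 0.175, or 0.0405 after quantile normalization). Sall4, at 64.2 and 48.8 RPKM against 56.2 and 43.5 RPKM, and Utf1, at 115 and 83.1 RPKM against 96.4 and 77.6 RPKM, overlapped between the groups (-0.17, adjusted p = 0.549 and -0.18, 0.544).

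Among the 25 partners, 3 fell and 2 rose after Cbx3 siRNA (median -0.18), beside 5.33% of all tested genes that fell and 7.80% that rose. Sox2 went from 29.6 and 29.9 RPKM to 19.1 and 20.9 RPKM (-0.55, adjusted p = 0.00541), Gdf3 fell by 0.50 (0.00454) and L1td1, an RNA-binding protein gene of pluripotent cells, by 0.40 (0.0247). Dnmt3l, a cofactor of the de novo DNA methyltransferases, rose by 0.42 (adjusted p = 0.0119) and the cell cycle regulator Mybl2 by 0.24 (0.0466).

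Of the primed genes, 4 of 11 fell and 1 rose (median -0.39). The de novo DNA methyltransferases Dnmt3b and Dnmt3a fell by 0.76 and 0.69 (adjusted p = 0.00162 and 0.00319), the forkhead factor Foxd3 by 0.52 (0.0155) and Sox3 by 0.43 (0.0436), while the ligand Nodal rose by 0.23 (0.0414). Among the naive factors 1 of 12 rose, Stat3, which carries the LIF signal (0.85, adjusted p = 0.00403), and 0 fell. Hdac2 was the 1 of 13 NuRD subunits that fell (-0.25, adjusted p = 0.0356), 0 NuRD subunits rose, and 0 of 16 genes around Lin28 and let-7 passed (limma). The shares called among the naive, NuRD and Lin28 lists were below the 13.1% of all tested genes.

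Markers of other cells moved at the same time, while 7.80% of all tested genes rose and 5.33% fell. Summed trophoblast markers were at 196 and 208 RPKM in NPC control and at 478 and 515 RPKM after Cbx3 siRNA. Most of the latter was Krt8 (168 and 183 RPKM) and Krt18 (303 and 326 RPKM), the keratins of simple epithelia. These and Eomes were the 3 of 4 tested markers that rose, and Tfap2c did not pass (0.08, limma, adjusted p = 0.61). Cdx2, Elf5 and Hand1 were below 1 RPKM in these NPC libraries. Summed neural progenitor markers went from 95.7 and 90.6 RPKM to 69.1 and 68.9 RPKM, with 5 of 8 tested markers down, Sox2 among them. Feeder markers were at 26.7 and 25.2 RPKM in control and at 36.1 and 36.5 RPKM after Cbx3 siRNA. Of 13 tested markers 5 were up and 1 was down, Col1a2 (-0.53, limma, adjusted p = 0.0264). Col3a1, among those up, was below 1 RPKM in every NPC library and passed the filter only through the ESC libraries. Mesoderm and streak markers summed to 15.9 and 14.4 RPKM in control and to 18.3 and 19.9 RPKM after Cbx3 siRNA. Wnt3 and Eomes, which is also on the trophoblast list, were up among 4 tested. Whether these changes bear on the levels of Pou5f1 and Nanog was not tested.

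Med26 siRNA lowered Nanog, while Pou5f1 overlapped with control. Nanog was at 24.3 and 23.5 RPKM in NPC control and at 18.1 and 18.6 RPKM after Med26 siRNA, without overlap (23.9 ± 0.565 and 18.3 ± 0.390 RPKM, SD, n = 2 each). It fell by 0.37 (SE 0.06, 95% interval -0.52 to -0.21, adjusted p = 0.0195), which makes 1 of 6 members beside 13.4% of all tested genes. The call was lost when all 10 libraries were fitted (adjusted p = 0.904), with no filter on low values (0.0836) and on leaving out any 1 of the 4 control and Med26 siRNA libraries (0.0793 to 0.118).

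Pou5f1 was at 467 and 495 RPKM after Med26 siRNA against 484 and 497 RPKM in control. The groups overlapped, and the change was -0.03 (95% interval -0.18 to 0.12, adjusted p = 0.792), or 0.08 after quantile normalization. Sall4 was at 73.7 and 61.6 RPKM against 64.2 and 48.8 RPKM, and its change of 0.26 had a wide interval (adjusted p = 0.347). Lin28a was at 223 and 230.3 RPKM against 238 RPKM in both controls (-0.07, adjusted p = 0.381, or 0.01 after quantile normalization). Utf1, at 98.5 and 86.7 RPKM, lay inside the range of the control pair (-0.08, adjusted p = 0.788), and Dppa4, at 24.6 and 27.3 RPKM, lay below both controls (-0.12, 0.295). The median over the 6 members was -0.08, against 0.00 over all tested genes.

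While Nanog fell, 6 of 12 naive factors rose after Med26 siRNA and 0 fell (median 0.40), beside 6.90% and 6.46% of all tested genes. Their levels in NPCs were low. Nr0b1 went from 1.29 and 1.60 RPKM to 3.61 and 3.21 RPKM (0.85, adjusted p = 0.00543), Stat3 rose by 0.65 (0.00953), Esrrb by 0.61 (0.0133) and Klf4 by 0.43 (0.0165). Esrrb was at 1.18 and 0.913 RPKM in control and at 2.11 and 2.14 RPKM after Med26 siRNA. Klf4 and Nr5a2, both among the 6, were below 1 RPKM in every NPC library and passed the filter only through the ESC libraries. Of the partners, 4 of 25 rose and 1 fell: Fgf4, a ligand under Oct4 and Sox2 control, rose by 0.45 (adjusted p = 0.00806), Sox2 by 0.33 (0.0249), Mycn by 0.29 (0.0438) and Mybl2 by 0.28 (0.0278), and Gdf3 fell by 0.22 (0.0493). Of the primed genes, Fgf5 rose by 0.52 (adjusted p = 0.0216), and Nodal (0.0131) and Foxd3 (0.0398) each fell by 0.37.

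Around Lin28 and let-7, 4 of 16 genes rose and 1 fell, beside 6.90% and 6.46% of all tested genes. The let-7 targets Hmga2 and Igf2bp3 rose by 0.50 (adjusted p = 0.0322) and 0.34 (0.0137), the uridylyl transferase gene Tut7 by 0.33 (0.0465) and Lin28b, the paralog of Lin28a, by 0.24 (0.0452). Trim71, a ubiquitin ligase and let-7 target, fell by 0.58 (adjusted p = 0.0179). Of the 13 NuRD subunits, Mbd2 alone rose, by 0.36 (limma, adjusted p = 0.0262), a share near that of all tested genes, and 0 fell. Summed trophoblast markers, mostly Krt8 and Krt18, were at 330.1 and 348 RPKM after Med26 siRNA, above both controls. Summed mesoderm and streak markers were at no more than 9.20 RPKM against 15.9 and 14.4 RPKM in control. The part of both marker sets in these changes was not tested.

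The responses to Cbx3 and Med26 siRNA share their control libraries, so the knockdown groups were compared directly. Pou5f1 was at 379.5 and 405 RPKM after Cbx3 siRNA and at 467 and 495 RPKM after Med26 siRNA, without overlap, and was lower after Cbx3 siRNA by 0.29 in size (log2 change -0.29, SE 0.06, adjusted p = 0.027). Lin28a was at 257 and 259 RPKM after Cbx3 siRNA and at 223 and 230.3 RPKM after Med26 siRNA, without overlap (0.19, SE 0.05, adjusted p = 0.047). These are 2 of 6 members, beside 18.3% of all tested genes.

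Nanog, which passed against control with either siRNA, was at 20.2 and 18.4 RPKM after Cbx3 siRNA and at 18.1 and 18.6 RPKM after Med26 siRNA. These groups overlapped, and the difference was 0.07 (95% interval -0.09 to 0.23, adjusted p = 0.495). Sall4 was at 56.2 and 43.5 RPKM against 73.7 and 61.6 RPKM, without overlap, and did not pass (-0.44, SE 0.17, adjusted p = 0.129). Utf1 and Dppa4 differed by -0.09 and -0.08, with overlapping groups.

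Both calls of this comparison were lost when any 1 of the 6 NPC libraries was left out (adjusted p 0.0546 to 0.135 for Pou5f1 and 0.0806 to 0.227 for Lin28a), when all 10 libraries were fitted (0.788 and 0.911) and with no filter on low values (0.114 and 0.0615). The Lin28a call was also lost after rescaling by median ratios (0.0651) and without the intensity trend (0.0803).

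Partners of the core genes were lower after Cbx3 than after Med26 siRNA for 8 of 25 and higher for 3, beside 7.87% and 10.4% of all tested genes. Sox2 was lower by the widest margin (-0.88, limma, adjusted p = 0.00121). Naive factors were lower for 4 of 12 and higher for 0, with Nr0b1 at -1.06 (adjusted p = 0.00237), and primed genes were lower for 4 of 11 and higher for 1. Of the genes around Lin28 and let-7, 3 of 16 were lower, among them Igf2bp3 (-0.55, adjusted p = 0.00265) and Lin28b (-0.33, 0.0149), and 2 were higher, with Trim71 at 0.75 (0.0062). Of the NuRD subunits, 1 of 13 was lower, a share near that of all tested genes.

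In ESCs, no member passed after Cbx3 siRNA. The limma fit of the 4 ESC libraries called 0% of all tested genes, 0 of 11956, with 125 genes at an unadjusted p under 0.05. Nanog was at 44.2 and 18.0 RPKM in control and at 68.3 and 24.5 RPKM after Cbx3 siRNA (0.52, SE 0.67, 95% interval -1.29 to 2.33). Pou5f1 was at 536 and 308 RPKM against 421 and 252 RPKM (-0.32, SE 0.44). For both genes the groups overlapped, and the gap between the replicates was wider than the gap between the group means. Read by replicate number, Nanog was higher after Cbx3 siRNA and Pou5f1 lower in replicate 1 and in replicate 2. The labels do not say that the numbers pair the libraries.

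Dppa4 and Utf1 were closer within groups. Dppa4 was at 41.0 and 43.6 RPKM in ESC control and at 30.9 and 37.0 RPKM after Cbx3 siRNA, and Utf1 was at 105 and 92.4 RPKM against 85.5 and 77.8 RPKM. Neither pair of groups overlapped, with log2 changes of -0.31 for Dppa4 and -0.27 for Utf1, each with an adjusted p of 1. Sall4 and Lin28a differed by -0.05 and 0.06, with overlapping groups.

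The response to Cbx3 siRNA was compared between the cell types by an interaction term over all 10 libraries. It called 0% of all tested genes (limma), 0 of 11956, with 233 at an unadjusted p under 0.05, and none of the 6 members. Nanog differed most between the cell types, with a response in NPCs lower than in ESCs by 0.81 in size (-0.81, SE 0.71, 95% interval -2.46 to 0.83, adjusted p = 1). It was -0.91 without both ESC replicates 2, past the threshold in that fit (adjusted p = 0.0232), which rests on 1 library in each ESC group. For Pou5f1 the difference of the responses was 0.00, and for Sall4, Lin28a, Utf1 and Dppa4 it was -0.13, 0.06, 0.09 and 0.12. The log2 change of Pou5f1 after Cbx3 siRNA was -0.32 in both cell types, with an SE of 0.06 in the NPC fit and 0.44 in the ESC fit.

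The proportions between members, read within a library, do not depend on a factor that scales the whole library. Lin28a stood at 49.2% and 48.0% of the Pou5f1 level per length in NPC control, at 67.8% and 63.9% after Cbx3 siRNA and at 47.9% and 46.5% after Med26 siRNA. The Cbx3 siRNA libraries were thus above the other 4 NPC libraries. In ESCs the same ratio was 20.5% and 63.3% in control and 26.1% and 83.8% after Cbx3 siRNA, split by replicate.

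Nanog stood at 5.02% and 4.73% of the Pou5f1 level in NPC control, at 5.32% and 4.55% after Cbx3 siRNA and at 3.87% and 3.76% after Med26 siRNA. The Med26 siRNA libraries were the lowest, while the Cbx3 siRNA libraries, in which both genes fell, lay on either side of the control values. In ESCs Nanog stood at 8.26% and 5.85% in control and at 16.2% and 9.72% after Cbx3 siRNA, all above the NPC libraries.

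Several members have more than 1 transcript row, and the rows share exons, so reads in common cannot be separated. The Pou5f1 row NM_001252452 was at 78.3% and 79.6% of the row NM_013633 in ESC replicates 1 (control and Cbx3 siRNA), at 95.8% and 96.2% in ESC replicates 2 and at 75.6% to 77.9% in NPCs. Replicates 2 of the ESCs thus stood apart from the other 8 libraries in this ratio. Of the named Pou5f1-related sequences, 7 in the RefSeq table, 1 has a row in the deposited table and reached at most 7.36 RPKM, and reads shared with such copies are uncertain.

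The Sall4 rows differed between the cell types. The row NM_201396, which lacks the large exon 2 (2367 bases in NM_175303, per GENCODE M21), was at 83.2% to 90.5% of the row NM_175303 in ESCs and at 66.8% to 71.9% in NPCs. The row NM_201395, with a shorter exon 2 of 1035 bases, was at 92.2% to 96.0% in ESCs and at 86.3% to 90.4% in NPCs. Neither range overlapped between ESCs and NPCs, although the level of the highest row did not pass between them. An annotated noncoding gene, Gm14261, overlaps Sall4, and the use of strand in counting is not given in the sources used. The 4 rows of Nanog lay within 93.0% to 103% of each other's reference row and the second row of Dppa4 at 86.1% to 91.5%, with ESC and NPC ranges that overlapped, while Lin28a and Utf1 have 1 row each.

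**Figure D4:**
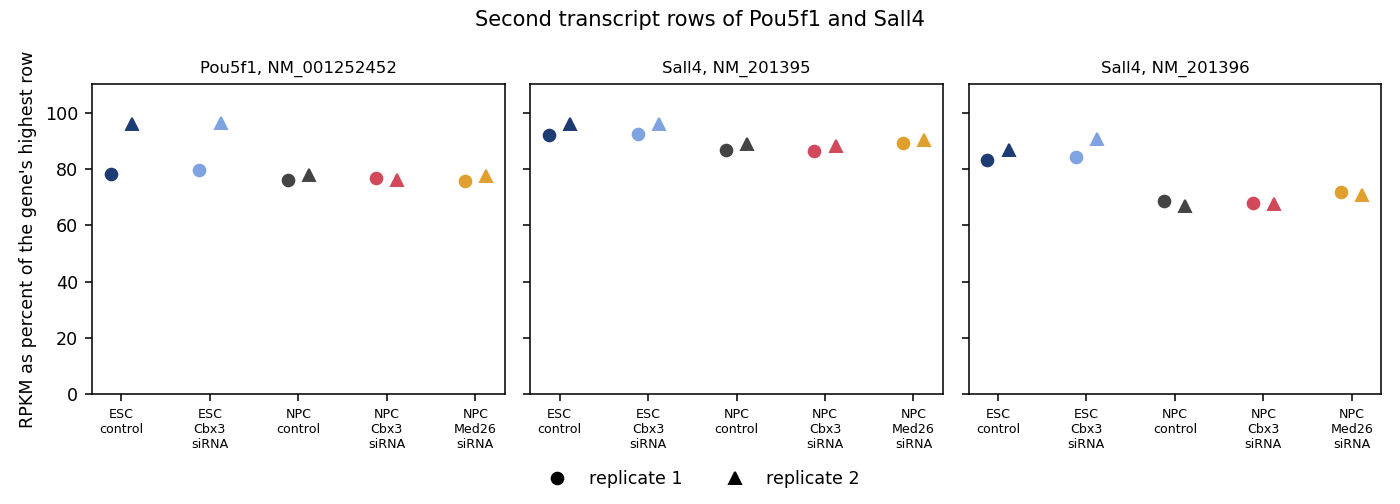
RPKM of further transcript rows of Pou5f1 and Sall4 as a percent of the gene's highest row (vertical axis) in the 5 groups; circles are replicate 1 and triangles replicate 2. The Pou5f1 row is high in ESC replicates 2 (95.8% and 96.2%), and the Sall4 row without exon 2 is lower in all NPC libraries (66.8% to 71.9%) than in all ESC libraries (83.2% to 90.5%).

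Among 7244 tested genes with a mean of at least 5 RPKM, those whose log2(RPKM + 1) followed each member most closely over the 10 libraries were listed as a description. The libraries share cell types, replicates and depth, so these correlations have no p-value. Closest to Pou5f1 were Sympk (r = 0.986), Fh1 (0.983) and Ier2 (0.978), and closest to Nanog were Rab3gap2 (0.988), Psmg4 (0.963) and Ldb1 (0.958). Lin28a was followed by Rnf149 (0.990), Wwtr1 (0.988) and Cd151 (0.986), and Dppa4 by Wsb2 (0.984), Hnrnph2 (0.982) and Acadm (0.968). Sall4 and Utf1 had looser followers, Dazap2 (0.934), Kdm6a (0.917) and Ell2 (0.910) for Sall4 and Hnrnpa2b1 (0.946), Git1 (0.903) and Helz (0.899) for Utf1. None of the 6 members was among the 3 closest genes of another.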

How the data were processed

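The authors deposited RPKM values for each RefSeq transcript in each of the 10 libraries. Per the submitters' processing notes, TopHat2 2.08 and the mouse build mm9 were used, and the counting of reads shared between transcripts or copies is not given in the sources used. Of 35860 rows, 99.07% received a gene symbol from RefSeq tables of GRCm38.p6, 334 stayed under their own identifier, and the row with the highest mean RPKM stood for a gene. RPKM values are not counts: 64.6% to 70.3% of low values came within 0.1 of a whole read, too few for a count test.

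The tool limma 3.58.1 (R 4.3.3) fitted log2(RPKM + 1) of the 11956 genes that reached 1 RPKM in at least 2 libraries. It used an intensity trend and two-sided tests, with p-values adjusted by Benjamini-Hochberg over all tested genes and a threshold of 0.05. This scale understates the change of low genes. NPC comparisons used the 6 NPC libraries, the ESC comparison the 4 ESC libraries, and comparisons between cell types all 10. The fits were tested on simulated data.

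The members and gene lists were chosen with earlier results of these data known. The text names the members, both siRNA targets, at most 4 genes each way per list among those past the threshold, and the 3 genes closest to each member. Cell type markers named outside this rule were chosen after their values were seen. Alternatives were the pseudocount, filters, scaling, the row chosen, the trend, the libraries fitted, a replicate block and leaving out libraries.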

Additional observations from a re-analysis of the deposited data

How the results depend on the processing

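With n = 2 per group, residual degrees of freedom were 5 over 10 libraries, 3 over the NPC libraries and 2 over the ESC libraries, and every called member lost its call under at least 1 alternative, as given beside each result. Steps in the low values correspond to 23.3 M to 63.8 M reads per library, whole reads could not be recovered, and counting error was not modelled. The causes of the shifts below were not tested.

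Counts of genes past the threshold are given in the order NPC against ESC under control siRNA, the same under Cbx3 siRNA, then Cbx3 siRNA, Med26 siRNA and the contrast of both in NPCs. They were 1918, 2460, 1570, 1597 and 2185 as reported, and 0 for Cbx3 siRNA in ESCs and for the interaction. A mean of at least 5 RPKM gave 1148 and 1480 in the NPC against ESC comparisons, where fewer genes are tested. No filter on low values gave 576, 438 and 891 in NPCs and 16 for the interaction. Fitting only the libraries compared gave 47 and 17, and fitting all 10 libraries gave 1, 15 and 120 in NPCs. Leaving out 1 library gave 185 to 2699, 411 to 3286, 391 to 1063, 164 to 1148 and 560 to 1672, and 0 for the other 2 results. Where a group keeps 1 library, it is assumed to vary like the other groups. Leaving out both ESC replicates 1, chosen after seeing the data, gave 5216 and 5474. Leaving out both ESC replicates 2, likewise, gave 5518, 5695 and 168 for the interaction.

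A replicate block, set separately in ESCs and NPCs, gave 6912, 7249, 3495, 3705 and 4234 genes, 55 for Cbx3 siRNA in ESCs and 6 for the interaction. The labels do not say that the numbers pair the libraries, and with only 2 numbers the data cannot decide it. Same-numbered libraries deviated together, with r = 0.89 between the ESC groups and 0.42 to 0.46 between the NPC groups. With the block, Pou5f1, Nanog and Lin28a passed in NPC against ESC control (adjusted p = 0.00127, 0.0169 and 1.06e-05), Sall4, Dppa4 and Lin28a after Cbx3 siRNA in NPCs (0.0309, 0.0222 and 0.0339), Sall4 after Med26 siRNA (0.00876) and in the contrast of both siRNAs (0.00167), and Nanog in the interaction (0.0489).

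Some log2 changes of members that had not passed changed sign. After quantile normalization these were Utf1 in NPC against ESC control (0.05), Pou5f1 (0.08) and Lin28a (0.01) after Med26 siRNA and Pou5f1 in the interaction (0.07), and after rescaling by median ratios Utf1 in NPC against ESC under Cbx3 siRNA (-0.01). Without both ESC replicates 1, Nanog (0.39) and Utf1 (0.08) turned in NPC against ESC control. Without both ESC replicates 2, Pou5f1 (-0.13) and Sall4 (0.19) turned there, Pou5f1 (-0.10) and Sall4 (0.01) under Cbx3 siRNA, and Pou5f1 in the interaction (0.03).

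Leaving out 1 library at a time gave these ranges for members that turned. In NPC against ESC control they were -0.13 to 0.67 for Pou5f1, -0.86 to 0.39 for Nanog, -0.26 to 0.19 for Sall4 and -0.24 to 0.23 for Utf1. Under Cbx3 siRNA they were -0.10 to 0.64 for Pou5f1, -0.35 to 0.02 for Sall4 and -0.07 to 0.24 for Utf1. After Cbx3 siRNA in NPCs they were -0.37 to 0.02 for Sall4 and -0.41 to 0.06 for Utf1. After Med26 siRNA they were -0.07 to 0.01 for Pou5f1 and -0.32 to 0.15 for Utf1, and in the contrast of both siRNAs -0.25 to 0.06 for Utf1. In ESCs they were -0.72 to 0.08 for Pou5f1, -0.20 to 1.24 for Nanog, -0.27 to 0.18 for Sall4 and -0.41 to 0.53 for Lin28a. In the interaction they were -0.40 to 0.40 for Pou5f1, -0.36 to 0.10 for Sall4, -0.41 to 0.52 for Lin28a, -0.14 to 0.32 for Utf1 and -0.01 to 0.24 for Dppa4.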
